A study of Mus musculus with 2 samples.

Results

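The receptors by which macrophages sense chemokines and other chemoattractants were examined in cells that lacked PAC1 and in wild-type cells after lipopolysaccharide (LPS). The 9 genes were Ccr1, Ccr2, Cxcr4, C3ar1, C5ar1, Fpr1, Ptafr, Ltb4r1 and Ccrl2, and all probe sets annotated to each of them were used. Fpr1, the formyl peptide receptor gene, had no probe set named for it alone and was left out, so 8 genes with 10 probe sets remained, of 8220 genes and 12654 probe sets in all. Of these 8 genes, 5 had signals above the floor on both arrays, 1 (Ltb4r1) on the wild-type array only, and 2 (Ccr2 and Cxcr4) on neither.

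These proteins span the membrane as G protein-coupled receptors, and most of them signal through Gi proteins to turn a gradient of ligand into directed movement, calcium release and degranulation. Anaphylatoxin receptors read fragments of complement, chemokine receptors read small secreted proteins, formyl peptide receptors read bacterial peptides, and the receptors of platelet-activating factor (PAF) and leukotriene B4 read lipids made by the inflamed tissue. LPS reprograms this set in macrophages. Ccrl2 is known as an LPS-induced gene, and Ccr2, which brings monocytes out of the blood, is known to be lost from monocytes on LPS exposure.

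The cells were macrophages drawn to the mouse peritoneum by thioglycollate, an irritant, given at 3% in a volume of 2 ml 4 days earlier, and they were purified by adherence for 2 hours. One group carried the Pac1-/- genotype (PAC1 is the nuclear MAP kinase phosphatase encoded by Dusp2) and the other was Pac1+/+, from littermates of the same age, and both groups had 100 ng/ml LPS for 6 hours. Each genotype was represented by 1 Affymetrix array, so no difference below has a replicate check, no test of genotype was possible, and no p-value is given. The sources used here do not give the strain, the age, the kind of Pac1 allele or the number of mice behind an array, and unstimulated cells were not analysed here, so the values are levels after LPS and not responses to it.

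The values are MAS5 intensities, in arbitrary units, of 1 number per probe set and array. The floor was the median of all signals on both arrays, 36.4, and a gene with at least 1 signal above it was called eligible (5119 genes). A log2 ratio is always knockout over wild type, and where 1 signal lay under the floor the other was divided by the floor itself and the fold is written as "at least". Signals of different probe sets depend on their probes and are not comparable, so the receptors are not ranked by level. As a check of the labels, Dusp2 read 76.8 in Pac1-/- cells and 333 in Pac1+/+ cells, 23.1% of the latter, though the sources used here do not say whether its probes lie in the deleted part. All 9 macrophage markers were above the floor on both arrays, and per the labels 92 to 95% of the cells bore Mac-1.

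Promoter sequence is shown for 3 of the genes, because C3ar1 and Ltb4r1 had the widest ratios of the set in either direction and Ccrl2 is the member known for its induction by LPS. Each is the 250 bases before an annotated start, 5′ to 3′ on the strand of the gene, from RefSeq on build GRCm38.p6, and capitals mark matches to TGANTCA (the AP-1 element), GGGNNNNNCC (a loose form of the NF-kB element) or GAGGAA (a core of PU.1 sites) on either strand. The windows are chr6:122856158-122856407 (minus strand) for C3ar1, chr9:111057519-111057768 (minus strand, the most upstream of 3 annotated starts) for Ccrl2 and chr14:55765712-55765961 (plus strand) for Ltb4r1.
C3ar1: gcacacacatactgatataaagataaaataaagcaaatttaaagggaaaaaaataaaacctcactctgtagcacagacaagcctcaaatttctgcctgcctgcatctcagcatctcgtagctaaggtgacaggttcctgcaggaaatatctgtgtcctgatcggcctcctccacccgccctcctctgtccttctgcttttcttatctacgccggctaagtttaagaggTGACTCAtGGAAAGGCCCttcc
Ccrl2: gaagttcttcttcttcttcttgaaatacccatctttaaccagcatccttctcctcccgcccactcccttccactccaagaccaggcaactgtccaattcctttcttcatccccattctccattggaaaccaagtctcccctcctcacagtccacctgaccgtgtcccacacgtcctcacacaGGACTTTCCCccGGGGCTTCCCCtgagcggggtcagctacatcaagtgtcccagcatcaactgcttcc
Ltb4r1: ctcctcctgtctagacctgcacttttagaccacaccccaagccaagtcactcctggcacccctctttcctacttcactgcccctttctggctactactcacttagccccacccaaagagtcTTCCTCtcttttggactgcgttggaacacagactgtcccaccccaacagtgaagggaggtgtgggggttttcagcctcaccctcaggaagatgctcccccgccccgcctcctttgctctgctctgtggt
The C3ar1 window held 1 AP-1 match, TGACTCA, that ended 16 bases before the start, and, closely after it, 1 NF-kB match. Of the 32851 windows of this length in the table, 6.75% held an AP-1 match, 45.8% an NF-kB match and 23.3% a PU.1 match. The Ccrl2 window held NF-kB matches at 3 positions, 2 of which overlap, and its other 2 windows held none. The Ltb4r1 window held 1 PU.1 match and neither of the other motifs, and among the windows of the 9 receptor genes the AP-1 letters occurred only in that of C3ar1. Matches describe these letters alone; binding was not measured.

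The receptors of the complement fragments C3a and C5a were both brighter on the knockout array. C3ar1, the C3a receptor gene (probe set 103707_at), had a signal of 702 in knockout cells and 483 in wild-type cells. The knockout signal was 1.46-fold the wild-type signal, a log2 ratio of 0.54 and the highest of the receptors, just under the 1.5-fold line used for counting. C5ar1, which encodes the classical C5a receptor (101728_at), had 326 in knockout cells and 294 in wild-type cells, a ratio of 0.15 or 1.11-fold. Among the 2382 genes with both signals above the 75th percentile of all signals (129.9), 2.56% had a ratio as high as that of C3ar1 and 25.9% one as high as that of C5ar1.

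Of Ccr1, Ccr2 and Cxcr4, the signalling chemokine receptors of the set, only Ccr1 had both signals above the floor, and it was dimmer in the knockout. Ccr1, a receptor of Ccl3, Ccl5 and Ccl9 (99413_at), had 460.5 in knockout cells and 548 in wild-type cells, a log2 ratio of −0.25 or 1.19-fold lower. Of the same 2382 genes, 14.9% had a ratio as low. Ccr2, the Ccl2 receptor gene (93397_at), had 14.4 in knockout cells and 23.7 in wild-type cells. Cxcr4, the Cxcl12 receptor gene (102794_at), had 14.5 and 3.7. All 4 of these signals were under the floor, as were both signals of 37.7% of all genes, so neither gene has a ratio here.

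Ccr1 lies in a cluster, and on the side of Ccr2 its next protein-coding neighbours in RefSeq are Ccr1l1, Ccr3 and Ccr2 itself. Genes on its other side are not covered in this paragraph. Ccr1l1, a close relative of Ccr1, had 12.2 in knockout cells and 53.2 in wild-type cells, at least 1.46-fold lower. Ccr3, the eotaxin receptor gene, was under the floor on both arrays at 24.0 and 3.9. So Ccr1 was the only one of these 4 genes with both signals above the floor, and no common direction of the 4 can be read.

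Ccrl2, which encodes an atypical receptor that binds chemerin and presents it to other cells without signalling as a classical chemokine receptor (93617_at), had 515 in knockout cells and 422 in wild-type cells. The log2 ratio was 0.29, 1.22-fold higher in the knockout, and 11.5% of the 2382 brighter genes had a ratio as high. The chemerin gene Rarres2 was dim, at 45.1 in knockout cells and 13.0, under the floor, in wild-type cells, at least 1.24-fold higher. Cmklr1, the signalling receptor of chemerin, was under the floor on both arrays at 8.0 and 16.2.

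The receptors of lipid mediators went in opposite directions. Ptafr, the PAF receptor gene, had 3 probe sets. Its brightest (94158_f_at) had 257 in knockout cells and 206 in wild-type cells, a log2 ratio of 0.32. The next (94159_at) had 246 and 198, a ratio of 0.31, so both put the knockout near 1.25-fold and 1.24-fold of the wild type. The suffix of the first marks probes that may match related transcripts, but that of the second does not. The remaining Ptafr probe set (94157_i_at) was under the floor at 5.9 and 1.1. Of the 2382 brighter genes, 9.49% had a ratio as high as that of Ptafr.

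Ltb4r1, the high-affinity receptor gene of leukotriene B4 (103266_at), had 24.4 in knockout cells and 69.1 in wild-type cells. Only the wild-type signal was above the floor, so the knockout was at least 1.90-fold lower (log2 ratio −0.92 at the bound). This was the only receptor gene past 1.5-fold: 1 of 6 eligible receptor genes was 1.5-fold or more lower, against 5.72% of all eligible genes, and 0 of 6 were 1.5-fold or more higher, against 6.37%. In either direction the background was 12.1%. The 5 receptor genes with both signals above the floor were all under 2-fold apart, while for Ltb4r1 the bound does not settle on which side of 2-fold it lies (2.31% of eligible genes were 2-fold or more apart at their measured or bounded fold); with so few genes the count is a description only. The Ltb4r1 value rests on 1 dim probe set, and of the 285 genes above the floor on the wild-type array only, 26.3% were 1.5-fold or more lower. Genes picked in this way can only have ratios below 0, so that share bears on the size of a ratio and not on its direction. Ltb4r1 was likewise eligible through its wild-type signal alone.

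**Figure D1:**
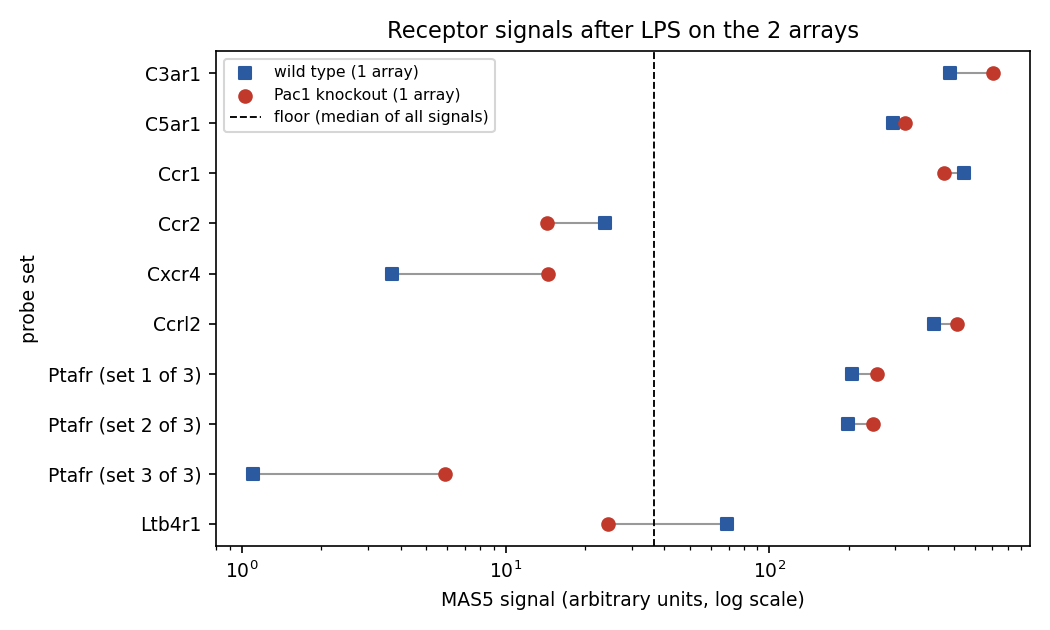
Signals of the 10 probe sets of the receptor genes on the knockout array (circles) and the wild-type array (squares), in MAS5 units on a log axis, with the floor of 36.4 as a dashed line. The probe sets of C3ar1, C5ar1 and Ccrl2 and the upper pair of Ptafr lie to the right of the floor with the knockout brighter, Ccr1 with the wild type brighter, and the signals of Ltb4r1 lie on either side of the floor.

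As a set, the receptors leaned towards the knockout array by a small amount. Of the 5 genes with both signals above the floor, 4 had ratios above 0 (C3ar1, Ptafr, Ccrl2 and C5ar1) and 1 below (Ccr1), with a median of 0.29 and folds between 1.11 and 1.46. Of the 2382 brighter genes, 49.9% had ratios above 0, with a median of 0.00 after rounding. With Ltb4r1 at its bound, the median of the 6 eligible receptor genes was 0.22, against 0.02 over all 5119 eligible genes.

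The only technical spread these arrays hold is that between probe sets of the same gene. Over 203 genes with several probe sets above 129.9 on both arrays it was 0.25 (SD on the log2 scale), and over 520 genes with several above the floor it was 0.33. The C3ar1 ratio was larger than either value, those of Ptafr and Ccrl2 were larger than the first only, that of Ccr1 was about equal to the first, and that of C5ar1 was smaller than both. This spread is an SD per probe set, taken from differences between probe sets of the same gene. It covers differences between probes and not between mice. Error that the probe sets of an array share, as from RNA preparation or hybridisation, cancels in it. A ratio larger than this spread is therefore not shown to exceed technical noise.

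**Figure D2:**
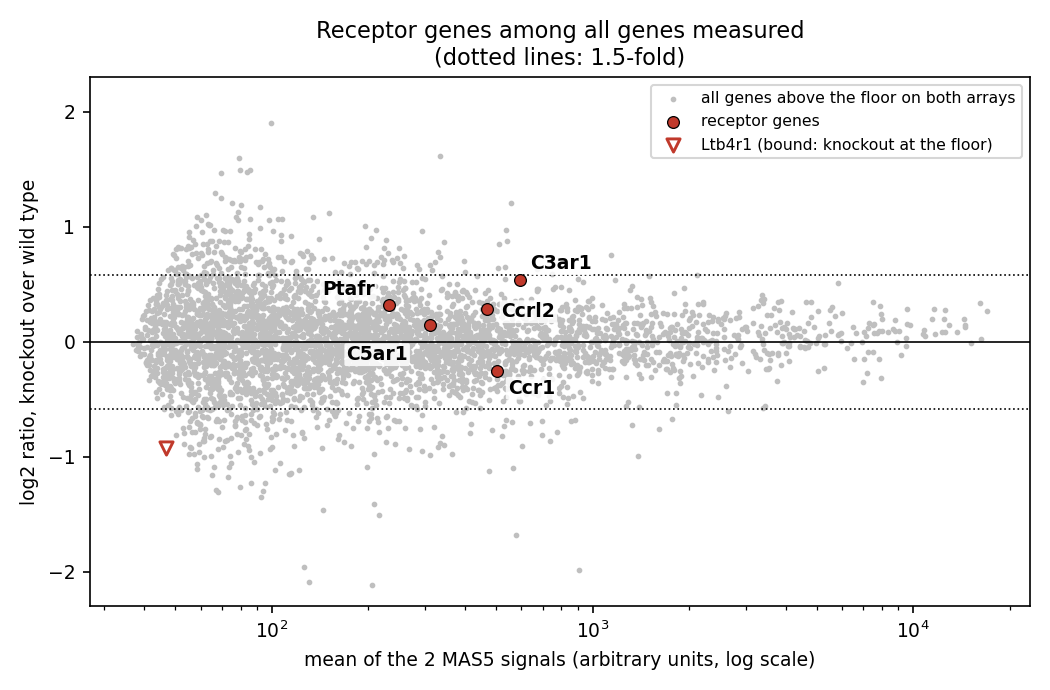
The log2 ratio (knockout over wild type) of each gene above the floor on both arrays (grey) against the mean of its signals in MAS5 units on a log axis, with the receptor genes in red and Ltb4r1, whose knockout signal was under the floor, as an open triangle at its bound. C3ar1 lies near the upper edge of the genes of its signal and the other filled points lie within the grey cloud, all inside the dotted 1.5-fold lines.

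The macrophage markers leaned the same way as the receptors. Of 9 markers, 7 had ratios above 0, with a median of 0.24 and summed signals of 34774 in knockout cells and 31786 in wild-type cells. Of all eligible genes, 52.2% had ratios above 0. The lowest marker was the scavenger receptor gene Msr1 on its brightest probe set (1366 against 2171, −0.67), while its other probe set gave −0.30 (240 against 296). Itgam, which encodes the alpha chain of Mac-1, had 356 in knockout cells and 301 in wild-type cells (0.24). In such bulk RNA, fewer cells of a type and less RNA per cell cannot be told apart, and the part of a general shift in macrophage transcripts in the receptor values was not tested. When the arrays were scaled to equal medians, the median of all eligible genes moved by −0.11 to −0.10. The split of genes 1.5-fold apart went from 326 higher and 293 lower to 214 higher and 457 lower. The medians of the receptors and of the macrophage markers became 0.10 and 0.12, beside that −0.10 over all eligible genes.

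Other leukocytes of the peritoneum share these receptors, neutrophils above all for C5ar1, Ltb4r1 and Ptafr. Of 10 neutrophil markers, 5 were eligible, with 2 ratios above 0 and 3 below, and the list summed to 907 in knockout cells and 978 in wild-type cells. S100a8 (367 against 386), the receptor gene Csf3r on its brightest probe set (315 against 408), Camp (85.7 against 61.9) and the granule protease gene Elane (50 against 54) were above the floor on both arrays and S100a9 on the knockout array only, while Ly6g, Mpo, Ltf, Ngp and Cxcr2 were under it on both. The other Csf3r probe sets, also above the floor on both arrays, gave −0.23 and 0.28, the latter counted among those that may cross-hybridise. No marker was listed at 0. Of 4 eosinophil markers only Prg2 was eligible, on 1 of its probe sets (100.1 against 16.0), while its other probe set was under the floor on both arrays (4.5 and 4.6); the list sums were 127 and 29.6. The 6 mast cell and basophil markers summed to 826 and 908, the 5 B cell markers to 329 and 309.9, the 5 T and NK cell markers to 77.0 and 111, the 6 dendritic cell markers to 1144 and 1163, and the 7 mesothelial and stromal markers to 773 and 1005. A sum takes in signals under the floor and follows its brightest genes. Of the B cell markers, Cd79a had 100.2 against 20.7, the latter under the floor, but Ms4a1 had 52.2 against 87.4 and 39.2 against 61.8. Itgax had 844 against 826 within the dendritic cell sums. The mast cell and basophil list was mixed as well. Hdc had 556 against 757, but Tpsb2 had 192 against 116 and 79.7 against 48.8. Eligible ratios above and below 0 numbered 2 and 1 for mast cells and basophils and 1 and 4 for B cells. They numbered 0 and 1 for T and NK cells, 2 and 2 for dendritic cells, and 1 and 4 for mesothelial and stromal cells. The part of these cell types in the receptor values was not tested.

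The ligand genes of these receptors went both ways. Of 24 genes listed as ligands or as enzymes that form or break down ligands, 19 were on the array and 16 eligible. Of these, 7 had ratios above 0 and 9 below, with a median of −0.03. Of them 2 were 1.5-fold or more higher (6.37% of all eligible genes were) and 0 were 1.5-fold or more lower (5.72%), so 2 of 16 were apart in either direction beside 12.1% of all eligible genes.

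Ligands of Ccr1 differed in direction. Ccl3 was at 7079 in knockout cells against 8793 in wild-type cells (−0.31), Ccl4, a close relative of Ccl3, at 3317 against 4194.5 (−0.34) and Ccl5 at 8775 against 9517 (−0.12). Ccl9 was at 15292 against 13815 (0.15), and Ccl6, a further Ccr1 ligand, was at 446 against 243 (0.87, or 1.83-fold), the highest ratio of the list. The direction of Ccr1 itself, −0.25, was that of Ccl3 and Ccl5 and opposite to that of Ccl6 and Ccl9.

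For Ccr2 and Cxcr4, whose own signals were under the floor, the chemokines were measured on the other side. Ccl2 was at 7271 against 7730.4 (−0.09) and Ccl7 at 6118 against 5784 (0.08). The dimmer Ccl12 was at 85.2 against 121 (−0.50). Ccl8, a further chemokine of the list that is not assigned to either receptor here, was at 312.5 against 315 (−0.01). Cxcl12 was at 48.6 in knockout cells and 33.9, under the floor, in wild-type cells, at least 1.34-fold higher.

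For leukotriene B4, receptor and enzyme differed in opposite directions. Lta4h, the hydrolase that makes leukotriene B4 from leukotriene A4, was at 382 in knockout cells and 248 in wild-type cells, 1.54-fold higher (0.62), beside the lower Ltb4r1 signal. Both values come from 1 probe set each. Pla2g4a, the cytosolic phospholipase that frees arachidonic acid, was at 184 against 194 (−0.08).

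On the PAF side, Pla2g7, the secreted enzyme that breaks PAF down, was at 457.5 against 585 (−0.36), while the receptor gene Ptafr had 0.32. Pafah1b1, a subunit of an intracellular PAF hydrolase, was at 139 against 145 (−0.06). For the anaphylatoxins, Hc, the C5 gene, was under the floor on both arrays at 7.3 and 20.2, and C3 had no probe set named for it alone. Anxa1, whose protein acts on formyl peptide receptors, had its brightest probe set at 8396 against 6587 (0.35), while its other probe sets gave 0.23 and −0.13. All of these Anxa1 probe sets have suffixes that mark possible cross-hybridisation.

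**Figure D3:**
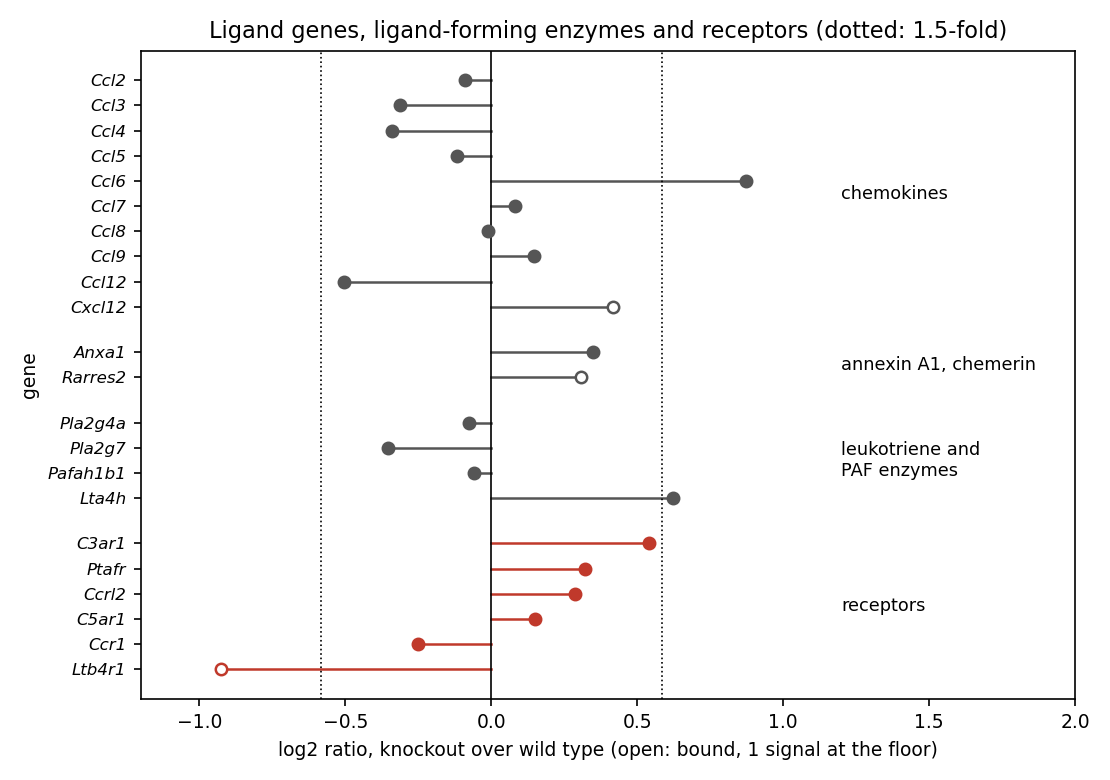
The log2 ratio (knockout over wild type) of the eligible ligand genes and enzymes that form or break down ligands (grey) and of the receptor genes (red), with open points where 1 signal was under the floor and the value is a bound. Only Ccl6, Lta4h and Ltb4r1 lie outside the dotted 1.5-fold lines.

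Other receptors of chemoattractants were mostly dim. Of 37 listed, 23 were on the array and 7 were eligible, with 4 ratios above 0, 3 below, a median of 0.02 and 0 of them called 1.5-fold apart in either direction (12.1% of all eligible genes were). This count includes Ccr1l1 at its bound of 1.46-fold. It became 1 with arrays scaled to equal medians or by loess, 9 with the floor at the 25th percentile and 14 with no floor. Over all genes, 1038 were then 1.5-fold or more higher and 816 lower, of 7128 eligible with the floor at the 25th percentile. With no floor, where each of the 23 was eligible, 1508 were higher and 1183 lower of 8220. Fpr2, the formyl peptide receptor gene next to Fpr1, read 236 in knockout cells and 232.5 in wild-type cells (0.02). Ptgdr2, a prostaglandin D2 receptor gene, had 110 against 115 (−0.07), and P2ry2, a receptor gene for extracellular ATP and UTP, had 66.5 against 60.3 (0.14). Xcr1 had 56.0 against 45.7 (0.29) and the scavenging receptor gene Ackr4 47.3 against 44.9 (0.08). Cx3cr1, the fractalkine receptor gene of resident mononuclear cells, was at 21.3 in the knockout, under the floor, and 39.0 in the wild type, at least 1.07-fold lower. The neutrophil receptor gene Cxcr2 and the lymphoid homing receptor gene Ccr7 were under the floor on both arrays.

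Genes of the signalling machinery behind the receptors also went both ways. Of 49 genes of receptor signalling, 35 were on the array and 34 eligible, with 18 ratios above 0, 16 below and a median of 0.01. Of these, 1 was 1.5-fold or more higher and 0 were 1.5-fold or more lower, against 6.37% and 5.72% of all eligible genes. The number 1.5-fold apart in either direction was 3 with equal medians, quantile normalization, the floor at the 25th percentile or no floor. It was 2 with loess or without cross-hybridising probe sets, and 0 with the floor at the 75th percentile. The counts over all eligible genes changed with these settings too and are given below. Gnai2, the Gi subunit gene of leukocytes, was at 8605 in knockout cells and 8086 in wild-type cells (0.09) on its brightest probe set, and its others gave −0.07 and 0.23. Of these Gnai2 probe sets, only that at 0.23 is not counted among those that may cross-hybridise. Rac1, a GTPase of membrane protrusion, was at 2646 against 2713 (−0.04) and the G protein subunit gene Gnb2 at 2240 against 2213 (0.02). The gene past 1.5-fold was Grk5, a kinase of receptor desensitisation, at 60.1 in knockout cells and 20.7, under the floor, in wild-type cells, at least 1.65-fold higher; it was named after its value was seen.

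The directions of the 5 receptor genes with both signals above the floor were the same in each of 9 other ways of processing the arrays. For C3ar1, C5ar1, Ccr1 and Ccrl2, however, only the 3 other scalings could move the ratio. Both signals of each were above every floor, and each had 1 probe set, without a cross-hybridising suffix. The deposited values were already at nearly equal trimmed means. C3ar1 lay between 0.42 and 0.57, Ptafr between 0.20 and 0.33 and Ccrl2 between 0.17 and 0.32. C5ar1 came nearest to 0, at 0.03 with arrays scaled to equal medians and at most 0.16, and Ccr1 lay between −0.37 and −0.20. Ltb4r1 was below 0 in the 8 of them that gave it a value, from −1.50 to −0.92, and had no value with the floor at the 75th percentile, since both of its signals were then under it. Its 1 probe set read 24.4 in knockout cells and 69.1 in wild-type cells. The choice of floor or of probe sets could therefore change the size of its ratio but not its direction. Agreement between settings concerns the processing of these arrays and not other mice.

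**Figure D4:**
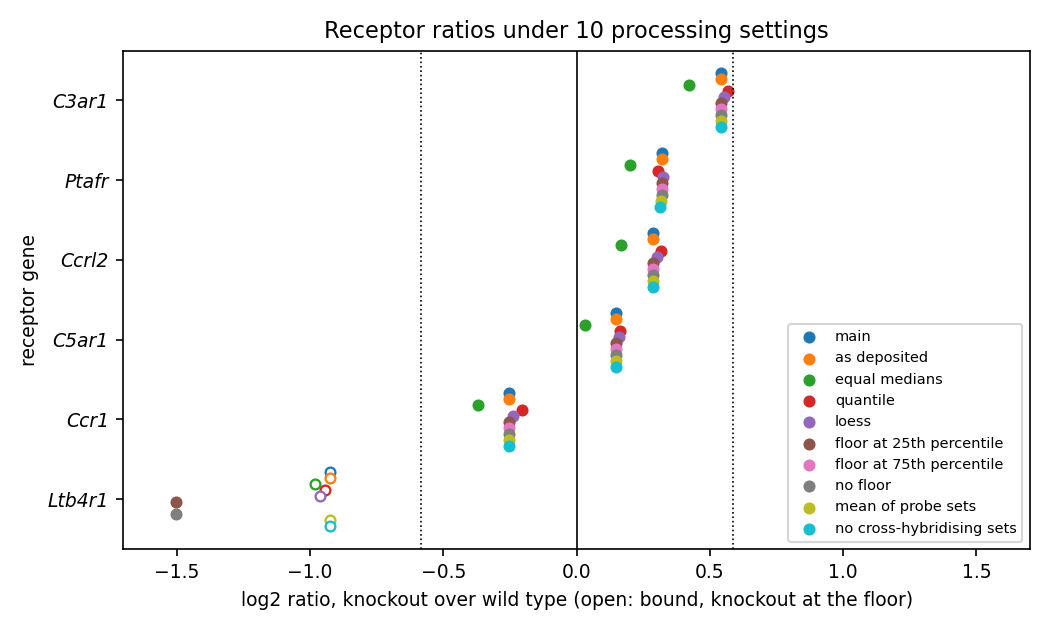
The log2 ratio (knockout over wild type) of the 6 eligible receptor genes under 10 settings (the main one and 9 others), with open points for bounds and dotted lines at 1.5-fold. C3ar1, Ptafr, Ccrl2 and C5ar1 lie above 0 and Ccr1 and Ltb4r1 below 0 in each setting that gives them a value, and the points nearest to 0 for C5ar1 are those with equal medians.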

How the data were processed

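RNA of LPS-treated peritoneal macrophages was hybridised to 1 array per genotype. The deposited values are intensities on a linear scale, which the authors computed with MAS5 per the submitters' processing notes; the sources used here give no version or settings. Poly(T)-primed amplification, per the labels' protocols, weights 3′ ends.

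Probe sets were named through the platform's annotation table: 10276 had 1 symbol, 363 several and 1949 none, besides 66 controls. Of the named ones, 10257 matched a RefSeq gene (GRCm38.p6) and 0 symbols changed. Where a gene had several probe sets (1609 genes), the brightest stood for it. Arrays were scaled to equal 2% trimmed means (factors of 1 after rounding), signals were raised to the floor and log2 ratios taken (Python 3.11.15, pandas 2.3.3), after a check on simulated arrays. The number of arrays limits the precision. Named were all members, the eligible ligands and other receptors, the 3 brightest signalling genes, signalling genes 1.5-fold apart above the floor on both arrays (0 such genes) and Dusp2. With 2 arrays, genes of a like pattern were not sought. Further genes, such as cell markers and genes under the floor, were named for the pathway or after their values were seen. Members, lists and settings were chosen with earlier results of these data known.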

Additional observations from a re-analysis of the deposited data

How the results depend on the processing

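The ratios of the receptor genes, the counts and medians of the receptor, ligand, signalling and macrophage lists, the counts over all genes and the spread between probe sets were recomputed under 9 alternatives; the other marker lists, single genes outside the receptor set and shares among brighter genes were not. The alternatives were 3 other scalings, the values as deposited, 3 other floors, averaging the probe sets of a gene, and leaving out probe sets that may cross-hybridise. The count of receptor genes 1.5-fold or more apart was 1, and became 2 with the floor at the 25th percentile (Ltb4r1 and Ccr2), 3 with no floor (Cxcr4 as well) and 0 with the floor at the 75th percentile, where Ltb4r1 had no value; it was 1 under the other alternatives. The added genes had every signal under the floor, Ccr2 with a log2 ratio of −0.72 and Cxcr4 with 1.97. The receptors' median ran from 0.10 to 0.29. The spread between probe sets of one gene became 0.55 with the lower floor and 1.03 with none, as dim signals entered. Of all 8220 genes, eligible with no floor, 1508 were 1.5-fold or more higher and 1183 lower. Of 7128 eligible with the floor at the 25th percentile, 1038 were higher and 816 lower. Of 2675 with that at the 75th, 53 were higher and 72 lower. With equal medians these counts were 214 and 457 of 5117 eligible genes. They were 297 and 320 of 5121 with quantile normalization and 290 and 327 of 5120 with loess. Without cross-hybridising probe sets they were 291 and 269 of 4640. The 2 genes of the ligand and enzyme list 1.5-fold apart became 5 with the floor at the 25th percentile and 6 with no floor. No paired analysis was possible because each genotype had 1 array, and for the same reason no replicate could be left out.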

Other observations

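Probe sets of 1 gene disagreed in direction within receptor signalling, and the genes named here were chosen after their values were seen. Gnb1, a subunit shared by many receptors, gave −0.14, 0.31 and −0.37 on its 3 probe sets. Among genes whose products shut receptor signals off, the regulators Rgs2 (85.0 in the knockout against 57.7, 0.56) and Rgs10 (260 against 205, 0.34, and 0.64 and 0.13 on its other eligible probe sets, the last of them with the wild-type signal under the floor) read higher in the knockout, Rgs14 lower (921 against 1002, −0.12) and Rgs16 higher (129 against 106, 0.28). Of the same kind, Rgs19 gave 0.02 on its brightest probe set (211 against 208) and 0.17 on its other eligible one. The receptor kinase gene Grk6 read 72.3 against 80.4 (−0.15). Arrb1, an arrestin gene, read 37.6 against 30.4, the latter under the floor, at least 1.03-fold higher. Pde4b, which breaks down cAMP, read 50.5 against 74.9 (−0.57). Probe sets that may cross-hybridise gave the Gnb1 value of 0.31 and the Rgs10 values of 0.34 and 0.13. They also gave both Rgs19 values and that of Arrb1.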
